A study of Mus musculus with 2 samples.

Results

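The 10 genes described here make up the core of adrenal and gonadal steroid synthesis, and they were read in whole ureters of mouse embryos. They are Star, Cyp11a1, Fdx1, Hsd3b1, Cyp17a1, Cyp21a1, Cyp11b1, Nr5a1, Nr0b1 and Mc2r, taken by gene name from the 29982 genes on the arrays. Earlier results of these data were known when they were chosen, so shares of members set beside all genes are descriptions only. They were read by 13 probes, and 9 of the 10 genes entered the test across all genes. Apart from Fdx1, which many cell types use, they are known as genes of the adrenal cortex and the gonads rather than of the ureter wall. In these pools 9 members were well above background in every channel, with the lowest reading at 8.40 intensity units (Cyp11b1). Of all probe spots, 80.3% to 80.4% had this call in green and 70.4% in red. Only Fdx1 and Nr5a1 reached a signal of 100 intensity units in the brighter RNA of both arrays. Hsd3b1 and Cyp11b1 were about 4-fold apart between the paired pools of male ureters and less than 1.5-fold apart between the paired pools of female ureters, and no member passed a test over both.

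Ureters came from embryos of NMRI mice, at E16.5 (embryonic day) by the sample titles. The stage label of the second channel of the arrays names another day. On each of 2 dual-colour arrays, 1 pool of Pparg-cKO ureters (Pax2-cre/+; Pparg(fl/fl)) was hybridised against 1 control pool (Pparg(fl/?), with no cre in the label), with female pools on array 1 and male pools on array 2. Pparg encodes a ligand-dependent nuclear receptor. Its floxed exons are removed by a cre recombinase driven by Pax2 sequences, which acts in the nephric duct and the ureteric epithelium derived from it, so the cells that make steroids were not the aim of the deletion. All groups carried at least 1 floxed allele in the labels as given, and the second allele of the controls is not specified. Each pool held ureters of several sex-sorted embryos, so each group was represented by 1 female and 1 male pool and the spread between embryos was not measured.

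Steroid hormones are made from cholesterol. STAR carries cholesterol into the mitochondrion, where CYP11A1 cleaves its side chain with electrons passed on by ferredoxin (FDX1). HSD3B1, CYP17A1, CYP21A1 and CYP11B1 then convert the product into progestins, androgen precursors and corticosteroids. Corticotropin, acting through its receptor MC2R, drives this sequence in the adrenal cortex, and the nuclear receptors NR5A1 (also called SF1) and NR0B1 (DAX1) control many of the genes. The adrenal gland and the gonads lie close to the kidney and ureter in the embryo. The adrenal gland and the testis already make steroids before birth.

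Which RNA was the mutant is not settled by the sources, which conflict, and no genotype direction is given. One RNA of each pair, called RNA A, carried AlexaFluor647 (red) in the female and AlexaFluor555 (green) in the male comparison, and its partner is called RNA B. The labels make RNA A the control. The authors' deposited fold changes track the ratio of RNA A to RNA B (Pearson r of 0.997 across probes on either array), so RNA A is Pparg-cKO if those fold changes are Pparg-cKO over control. The direction in the study's text would likewise make RNA A the mutant, and no group was assigned from measured values. All signed values below are log2 of RNA A over RNA B, and a negative value means a brighter signal in RNA B. The dye swap coincided with the change of sex, so dye and sex cannot be told apart.

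Each array held 157716 probe spots, of which 80.3% to 80.4% were well above background in green and 70.4% in red, and 0 were saturated. The number of arrays, 2, limited the precision. The sex genes Xist and Ddx3y matched the labelled sex of all 4 pools. The defining genes of the labelled tissue were present, with signals of the umbrella cell gene Upk3a from 30472 to 51988 and of the smooth muscle actin gene Acta2 from 39606 to 72555. The targeted gene Pparg had log2 ratios of 0.60 on array 1 and 0.71 on array 2, and whether its probe lies in the deleted exons was not analysed here.

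The probes that read these genes are 60 bases long. A 30-base stretch is shown for the 5 of 10 members whose representative probe (the brightest one of a gene) holds the polyadenylation hexamer AATAAA, in capitals, a signal found near the ends of transcripts, to show which piece of the transcript was read. Bases are numbered from the 5′ end of the probe.
Hsd3b1, bases 31 to 60: gaagcaaaacaaaaacagcAATAAAtattg
Cyp11b1, bases 26 to 55: cttacctaccctAATAAAatataaactgca
Nr5a1, bases 26 to 55: ctgcagccctgaAATAAAttttgcaattag
Cyp21a1, bases 23 to 52: cttctgcccagtAATAAAtggtctcttcag
Fdx1, bases 30 to 59: ttcctaagctacAATAAAaagaaatatttt
The hexamer was searched on the strand of the probe only, and 12.6% of all 39429 probes hold it. It is a match of letters and not a mapped cleavage site. No representative probe shared a run of 20 bases with another probe of the array. Binding of transcripts of close relatives of Hsd3b1 and Cyp11b1, or of the Cyp21a1 pseudogene, was not tested.

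In the files (mm9), the Hsd3b1 probe lies at chr3:98656127-98656186, that of Cyp11b1 at chr15:74665330-74665389, that of Nr5a1 at chr2:38548180-38548239 and that of Cyp21a1 at chr17:34938298-34938357, all on the minus strand. The Fdx1 probe lies at chr9:51751616-51751675 on the minus strand and the Star probe at chr8:26925460-26925519 on the plus strand. The probes of Cyp11a1 (chr9:57874074-57874544, plus strand) and Cyp17a1 (chr19:46742594-46743207, minus strand) span 471 and 614 genome bases, more than their own length, and thus join sequence from more than 1 exon. The exon or UTR of the other probes was not analysed here.

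The first steps of the pathway gave no difference past 1.5-fold on both arrays. Star, the cholesterol carrier, gave 12.9 (RNA A) and 12.9 (RNA B) in the female pools, and 8.46 (RNA A) and 15.1 (RNA B) in the male pools, all in intensity units. On array 2 all 4 spots were brighter in RNA B and their ranges did not overlap, while on array 1 they overlapped. Its log2 ratio was 0.0036 and −0.84, with a mean of −0.42 ± 0.60 (SD, n = 2 arrays, as for every mean below). With normexp and loess the mean was −0.13. A second Star probe, at signals of 4.10 to 6.52, gave −0.31 on array 2 with overlapping spots.

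Cyp11a1, the side chain cleavage enzyme, gave 18.8 (RNA A) and 12.5 (RNA B) in the female pools, and 13.8 (RNA A) and 14.1 (RNA B) in the male pools. Here the spots lay apart in the female pools and overlapped in the male pools, the reverse of Star. The log2 ratio was 0.59 on array 1, where all 4 spots were brighter in RNA A without overlap, and −0.041 on array 2. Fdx1, its electron donor, is used by mitochondrial cytochromes P450 of many cell types. The female pools gave 8272 (RNA A) and 7772 (RNA B), and the male pools 8707 (RNA A) and 8626 (RNA B). The ratios lay close together, at 0.090 and 0.014, and a second probe gave 0.17 and 0.12.

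The largest differences among the members were those of downstream enzymes. Hsd3b1, which makes progesterone from pregnenolone, gave 26.7 (RNA A) and 36.9 (RNA B) in the female pools, and 16.1 (RNA A) and 64.6 (RNA B) in the male pools. RNA B was brighter in all 4 spots of both arrays, with no overlap on either. The difference was 1.38-fold in the female pools and 4.01-fold in the male pools, a mean log2 ratio of −1.24 ± 1.09. With normexp background correction and loess, another normalisation, the mean was −0.78. Its adjusted p by limma with Benjamini-Hochberg adjustment was 0.443 (SE 0.33, unadjusted p = 0.00475), so the difference was not past the threshold.

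Cyp11b1, the last enzyme of glucocorticoid synthesis in the adrenal cortex, gave a like picture. The female pools gave 17.2 (RNA A) and 20.6 (RNA B), and the male pools 8.40 (RNA A) and 35.2 (RNA B). On array 2 the 3 kept spots did not overlap, ranging from 7.04 to 9.18 in RNA A and from 34.1 to 36.6 in RNA B, while on array 1 the spots overlapped. RNA B was brighter by 1.20-fold in the female and 4.19-fold in the male pools, a mean log2 ratio of −1.16 ± 1.28 (SE 0.37, unadjusted p = 0.0118, limma adjusted p = 0.681). With normexp and loess the mean was −0.54. The size of both means rests on array 2, since array 1 alone gave −0.47 for Hsd3b1 and −0.26 for Cyp11b1. In whole ureters, fewer cells of a type and less RNA per cell cannot be told apart.

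The other downstream enzymes were nearer to even. Cyp21a1, the 21-hydroxylase of the adrenal cortex, gave 92.0 (RNA A) and 78.1 (RNA B) in the female pools, and 75.6 (RNA A) and 110.4 (RNA B) in the male pools. Its spots did not overlap on either array, but the order of the RNAs turned, with log2 ratios of 0.24 and −0.55. A second Cyp21a1 probe was not well above background in any channel. Cyp17a1, the enzyme needed for androgens, had the most even signals of the downstream enzymes, with 53.9 (RNA A) and 53.0 (RNA B) in the female pools, and 53.5 (RNA A) and 49.5 (RNA B) in the male pools. Its mean log2 ratio was 0.069 ± 0.063, and the spots of both RNAs overlapped on either array.

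**Figure D1:**
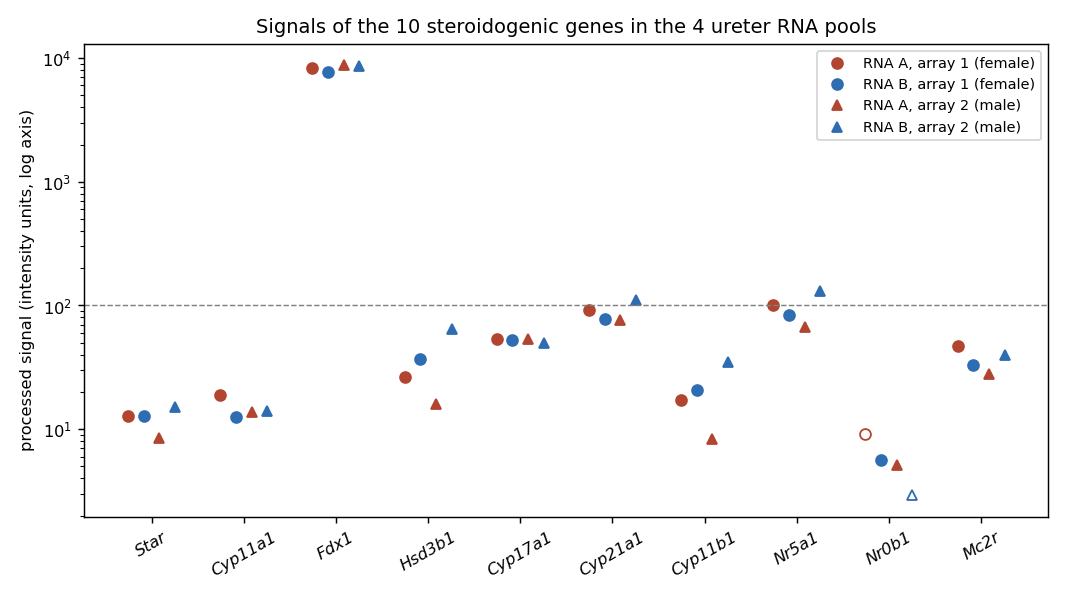
Processed signal (intensity units, log axis) of the representative probe of each of the 10 steroidogenic genes in the 4 pools. Circles are female and triangles male pools, red is RNA A and blue RNA B, open symbols were not well above background, and the dashed line marks a signal of 100. Hsd3b1 and Cyp11b1 show the widest gap, between the 2 male pools.

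Of the regulators, Nr5a1 differed in opposite directions on the 2 arrays. This master regulator of adrenal and gonadal development gave 101 (RNA A) and 84.1 (RNA B) in the female pools, and 66.8 (RNA A) and 131 (RNA B) in the male pools. The spots did not overlap on either array, and the log2 ratio was 0.26 in the female and −0.97 in the male pools. Mc2r, the corticotropin receptor, gave 46.9 (RNA A) and 33.1 (RNA B) in the female pools, and 27.7 (RNA A) and 40.0 (RNA B) in the male pools. Its log2 ratios of 0.50 and −0.53, again with no overlap of spots, left a mean of −0.014 ± 0.73. Both genes were thus brighter in the red channel on each array.

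Nr0b1, a repressor of NR5A1 targets, was the only member not well above background in every channel. The female pools gave 9.12 (RNA A) and 5.67 (RNA B), and the male pools 5.11 (RNA A) and 2.92 (RNA B). The log2 ratios of 0.69 and 0.81 had the same sign, with spots that overlapped on array 1 and not on array 2. On each array only the green channel was well above background, so Nr0b1 stayed out of the test and its ratios rest on 1 reading at background level each time.

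**Figure D2:**
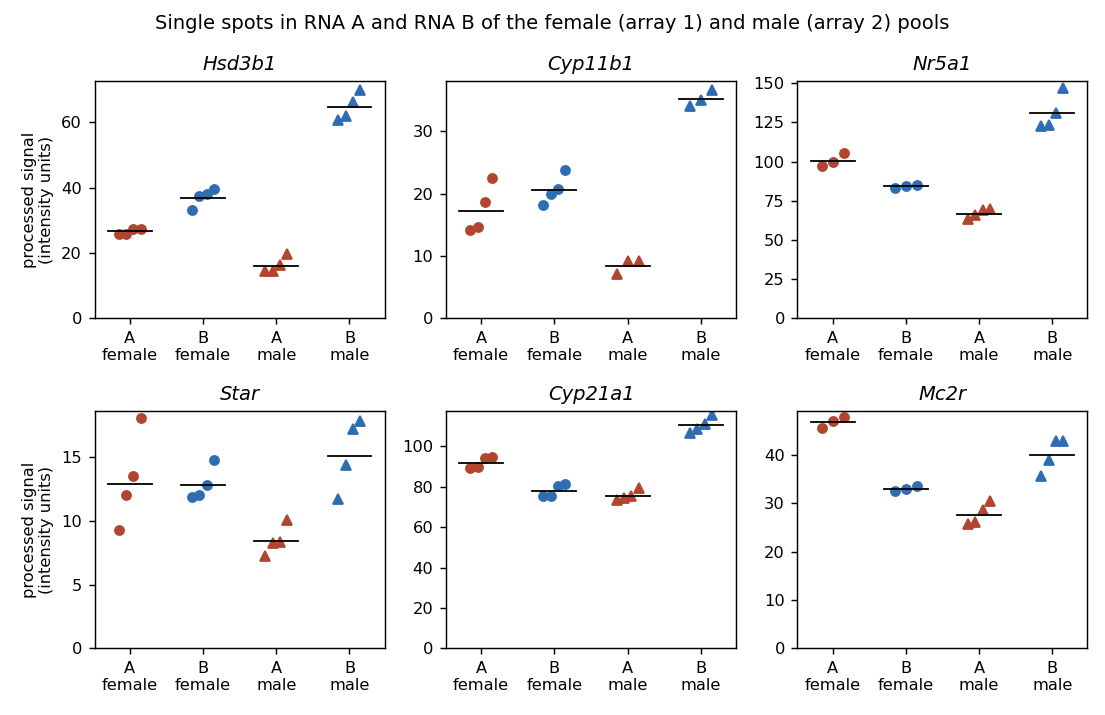
Processed signal of each kept spot (intensity units, linear axes from 0, 1 panel per gene) in RNA A and RNA B of the female and male pools, with a line at the mean of the log2 values. Spots are repeats of 1 probe on 1 array and show reading error, not the spread between pools. For Hsd3b1 the spots of RNA A and RNA B lie apart on both arrays, and for Nr5a1, Cyp21a1 and Mc2r they lie apart in opposite orders.

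Readings over both arrays were made in 2 ways for all genes, and neither counted a member. The first, a filter after the study's methods, asked of each array a difference of 1.5-fold or more, one way on both, and a signal in the brighter RNA that reached 100. No member passed (0 toward RNA A, 0 toward RNA B), where 0.157% of the 29982 genes passed toward RNA A and 0.23% toward RNA B. With Fdx1 and Nr5a1 alone at the signal threshold on both arrays, the filter could not count any difference in the other 8. Past 1.5-fold in opposite directions were 0 members and 0.43% of all genes. Without the signal threshold the filter counted 1 member, Nr0b1, toward RNA A (0.644% of all genes), 0 toward RNA B (0.797%) and 0 in opposite directions (11%). When the threshold was replaced by a call well above background, it counted 0 members toward RNA A (0.427%), RNA B (0.494%) or in opposite directions (1.3%).

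By limma on the log2 ratios of 21429 genes, 0 members had an adjusted p under 0.05, against 0.126% of genes called toward RNA A and 0.187% toward RNA B. At an unadjusted p under 0.05 there were 2 of the 9 members tested, Hsd3b1 and Cyp11b1, both brighter in RNA B, where 2.1% of all genes passed in that direction and 1.68% in the other. The other 7 had an adjusted p of 1.00. An exact sign-flip test on 2 arrays cannot give a two-sided p below 0.5.

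The members were then counted on each array alone, a reading chosen after seeing the data and with no test. On array 2, 4 of 9 members were at least 1.5-fold brighter in RNA B, namely Hsd3b1, Cyp11b1, Nr5a1 and Star, against 3.71% of all genes tested and 4.66% of the 7728 tested genes with signals under 200 in every channel. On the same array 0 members were that much brighter in RNA A, against 3.47% and 6.77%. On array 1 the only such member was Cyp11a1, brighter in RNA A, against 2.68% and 4.17%. None was brighter in RNA B there, against 4.91% and 6.33%. With normexp and loess, or with the authors' table, Star fell short and 3 members were left on array 2 (with means over probes Cyp21a1 took its place), and Cyp11a1, which only just reached 1.5-fold, fell short on array 1.

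The 9 members tested had a median log2 ratio of 0.090 in the female and −0.55 in the male pools, beside −0.00038 and 0.025 over all genes tested. Of the 9, Fdx1 and Cyp17a1 had the brighter signal in RNA A throughout and Hsd3b1 and Cyp11b1 brighter in RNA B on both. In the remaining 5, RNA A was brighter in the female and RNA B in the male pools, in other words the red channel each time. For Star on array 1 (0.0036) and Cyp11a1 on array 2 (−0.041) the ratio was near 0 and the spots overlapped. Of these 5, only Cyp21a1, Nr5a1 and Mc2r had spots that lay apart on both arrays. Red was brighter on both arrays for 55.6% of the members, 28.4% of all genes tested and 24.0% of those under a signal of 200. No member had the reverse order. Some probes not well above background in any channel had it too, as the second Cyp21a1 probe (1.08 and −1.20) and Cyp11b2 (1.19 and −1.19). Not every dim probe did, as Nr0b1 had the same sign on both arrays. Members were not matched on signal more closely than under 200, and the part of dim signals in this order was not tested.

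**Figure D3:**
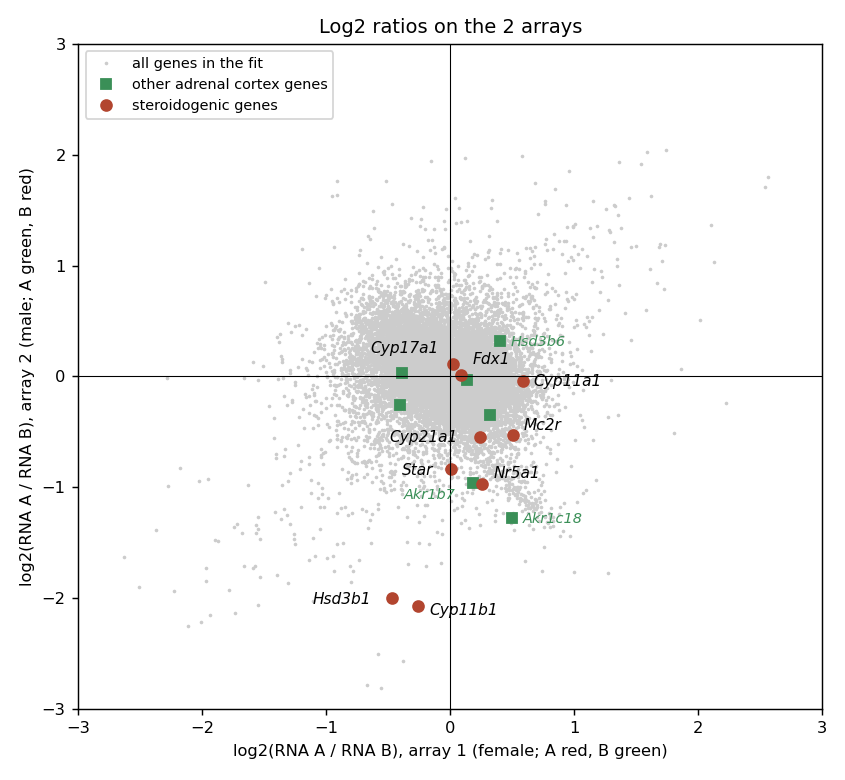
Log2 ratio of RNA A over RNA B on array 1 (female, horizontal) and array 2 (male, vertical) for the genes tested (grey), the 9 steroidogenic genes tested (red circles) and 7 other adrenal cortex genes (green squares, 3 of them named); 8 genes lie outside the plotted range of 3. Most members lie right of or near the vertical line and below the horizontal one, with Hsd3b1 and Cyp11b1 near −2 on array 2.

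Other genes of the adrenal cortex were read from a list of 8, of which 7 were tested. Their log2 ratios had a median of 0.18 in the female and −0.26 in the male pools, and 4 of the 7 were brighter in the red channel on both arrays, as were 28.4% of all genes tested. Cyp11b2, Hsd3b6, Mrap and Scarb1 of this list also belong to the list of other pathway genes below. The 4 that do not (Akr1b7, Akr1c18, Agtr1b and Inha) had medians of 0.25 and −0.66, with 3 of the 4 in that order. Akr1c18, a progesterone-inactivating reductase, gave 66.5 (RNA A) and 47.0 (RNA B) in the female pools and 28.6 (RNA A) and 69.3 (RNA B) in the male pools, with log2 ratios of 0.50 and −1.28. Akr1b7, a reductase abundant in adrenocortical cells, gave 227 (RNA A) and 200.2 (RNA B) in the female pools and 115 (RNA A) and 225 (RNA B) in the male pools, with log2 ratios of 0.18 and −0.96. Both thus had the order seen for Nr5a1.

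Not all cortical genes had this order. Inha, an inhibin subunit that the gonads also make, was brighter in RNA B on both arrays (−0.40 and −0.26), and Hsd3b6 brighter in RNA A on both (0.40 and 0.32). Scarb1 had the reverse order, at −0.39 and a near even 0.032, and its second probe gave −0.32 and −0.16. Cyp11b2, the aldosterone synthase, was not well above background in any channel. The summed signal of the list was 1435 (RNA A) and 1644 (RNA B) in the female pools, and 1563 (RNA A) and 1782 (RNA B) in the male pools, each array being normalised apart. Most of this sum is Scarb1 (643 to 905) and Inha (296 to 441), and 0 genes of the list were called by limma.

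Genes of the adrenal medulla, the chromaffin tissue enclosed by the cortex, had the opposite order. Of 6 medullary and sympathetic genes tested, 5 (Th, Dbh, Chga, Chgb and Slc18a1) were brighter in the green channel on both arrays, as were 32.6% of all genes tested. Their list had a median log2 ratio of −0.51 in the female and 0.64 in the male pools, and its summed signal was 1144 (RNA A) and 1547 (RNA B) in the female pools, and 2207 (RNA A) and 1414 (RNA B) in the male pools. Pnmt, the enzyme of adrenaline synthesis and the gene of the list most particular to chromaffin cells in textbook accounts, was the exception, brighter in RNA B throughout, with 12.5 (RNA A) and 17.2 (RNA B) in the female pools, and 11.0 (RNA A) and 20.3 (RNA B) in the male pools. No gene of the list was called. The part of adrenal cells in the ratios of the steroidogenic genes was not tested.

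Of the genes listed for gonadal cells that had a probe, some were not well above background in any channel. The others were well above it in pools of both sexes, and whether gonadal cells were present was not tested. Of the fetal Leydig cell genes, Hsd17b3, which makes testosterone, was not well above background in any channel, Lhcgr had signals of 4.23 to 7.50, and the array had no probe under the name Insl3. Their summed signal, mostly that of Inha, was 363 (RNA A) and 445 (RNA B) in the female pools, and 446 (RNA A) and 538 (RNA B) in the male pools. Amh and Cst9 of Sertoli cells were not well above background in any channel of the male or female pools, and neither were the germ cell genes Dppa3 and Pou5f1. The other genes of both lists were well above background in every channel, namely Dhh, Aard and Ptgds, and Ddx4, Dazl, Mael and Sycp3. Aard, at signals of 240.4 to 461, had log2 ratios of 0.0013 and −0.58. Foxl2, read here for ovarian supporting cells, had signals of 869 to 1161 in both sexes, and its log2 ratios were 0.23 and −0.14. Over the 4 pools, the summed signal ranged from 326 to 525 for the Sertoli list (3 of 5 genes tested), from 1994 to 2454 for the ovarian list (3 of 3) and from 119 to 129 for the germ cell list (4 of 6). None of these lists had a gene called by limma, and the part of gonadal cells in the members' ratios was not tested.

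Nephron genes had the sign of Hsd3b1 and Cyp11b1 in their median, though not in every gene. Of 5 such genes 3 were tested, with a median log2 ratio of −0.40 in the female and −0.46 in the male pools. Slc34a1, the phosphate transporter of the proximal tubule, was brighter in RNA B, with a limma adjusted p of 0.0122. It gave 6.20 (RNA A) and 30.8 (RNA B) in the female pools and 4.20 (RNA A) and 37.2 (RNA B) in the male pools. The RNA A reading was not well above background in the female pools, so the size of the ratio there rests on a reading at background level. A second probe gave only −0.19 and −0.24. Lrp2, an endocytic receptor of the proximal tubule, had log2 ratios of −0.23 and −0.46, and Six2, a gene of nephron progenitors, had −0.40 and 0.13. The summed signal of the list was 1309 (RNA A) and 1721 (RNA B) in the female pools, and 1055 (RNA A) and 1093 (RNA B) in the male pools. Most of this sum is Six2, and the part of kidney cells in the members' ratios was not tested. The adrenogonadal transcription factors Gata4, Gata6, Wt1, Lhx9 and Emx2 had medians of −0.22 and 0.19, and 0 of the 5 were called.

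The main tissues of the ureter were also brighter in RNA B in their medians. The 5 genes of smooth muscle and mesenchyme had a median log2 ratio of −0.42 in the female and −0.87 in the male pools. In the male pools 5 of 5 were brighter in RNA B, as were 45.8% of all genes tested. Of them 4 had an unadjusted p under 0.05 by limma, all toward RNA B, where 2.1% of all genes passed, and 0 were called. Myh11, the smooth muscle myosin gene, had log2 ratios of −0.42 and −1.18, and Acta2 −0.24 and −0.87. Tbx18 of this list was near even, at 0.11 and −0.081. The 6 urothelial genes had medians of −0.48 and −0.29, with Upk1b at −0.55 and −0.67 and the basal cell gene Krt5 the other way at 0.26 and 0.67. The summed signal of the smooth muscle list was 76200 (RNA A) and 93483 (RNA B) in the female pools, and 69805 (RNA A) and 121912 (RNA B) in the male pools, and that of the urothelial list was 54980 (RNA A) and 82247 (RNA B), and 56248 (RNA A) and 84372 (RNA B). The part of these tissues in the members' ratios was not tested.

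The other genes of the pathway were taken from a list of 20, all with a probe and 16 of them tested. Their median mean log2 ratio was −0.024, beside 0.0067 over all genes tested. The 1.5-fold filter counted 1 of the 20 toward RNA B, where 0.23% of all genes passed. This was Srd5a1, the 5α-reductase that converts testosterone to dihydrotestosterone. The female pools gave 2799 (RNA A) and 5877 (RNA B), and the male pools 2961 (RNA A) and 5783 (RNA B). RNA B was brighter by nearly the same factor in both sexes, with log2 ratios of −1.07 and −0.97 and a mean of −1.02 ± 0.074, a much smaller spread between the arrays than that of Hsd3b1 or Cyp11b1.

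By limma, Srd5a1 had an adjusted p of 0.122, and 0 genes of the list were called. Only Srd5a1 of the 16 tested had an unadjusted p under 0.05, as had 2.1% of all genes toward RNA B and 1.68% toward RNA A. A second, dim Srd5a1 probe had the same sign, at −1.52 and −1.35. The highest mean of the list was that of Nr5a2, a close relative of Nr5a1, with 97.6 (RNA A) and 93.8 (RNA B) in the female pools, and 150.4 (RNA A) and 75.5 (RNA B) in the male pools. Its difference lay in the male pools alone (log2 ratios 0.058 and 0.99, mean 0.53 ± 0.66), in the opposite direction to Nr5a1 there, and a second probe gave 0.47 and 0.13.

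**Figure D4:**
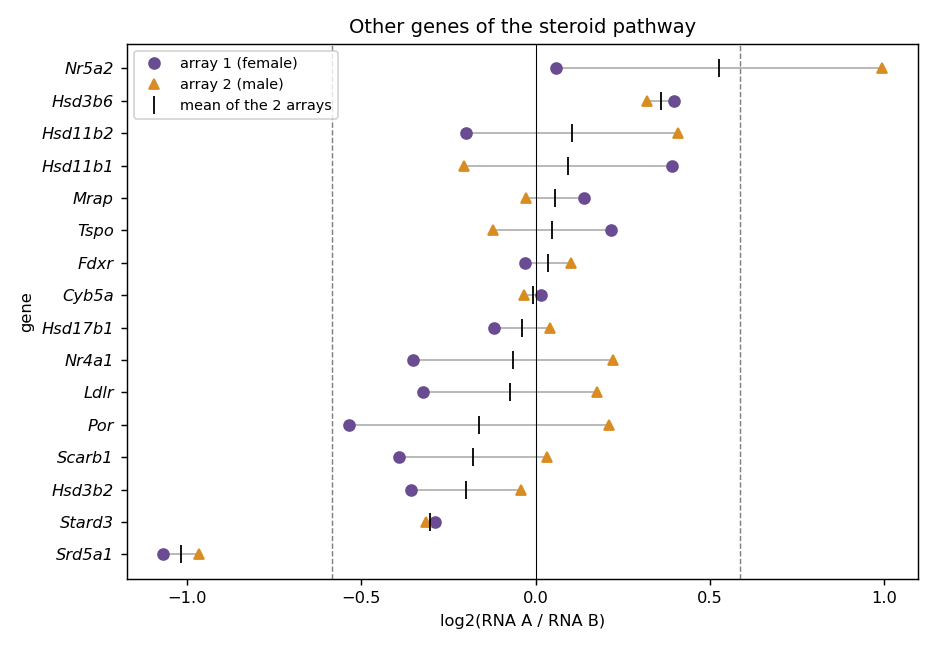
Log2 ratio of RNA A over RNA B on array 1 (circles) and array 2 (triangles), with the mean (tick), for the 16 other pathway genes tested; dashed lines mark 1.5-fold. Srd5a1 lies beyond 1.5-fold in RNA B on both arrays, and Nr5a2 beyond it in RNA A on array 2 alone.

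For Hsd3b1, the member with the largest mean log2 ratio in size, the genes with the most similar pattern were ranked by the root mean square difference of the 4 centred log2 channel signals. Cyp11b1 came first of all 21429 genes tested, with a difference of 0.114. It was followed by Ly6d at 0.129, Fbp1 at 0.180, Rims1 at 0.211 and a transcript named only by its identifier at 0.218. Ly6d, a membrane protein of stratified epithelia, gave 156 (RNA A) and 272 (RNA B) in the female pools, and 109.9 (RNA A) and 398 (RNA B) in the male pools. Fbp1, an enzyme of gluconeogenesis, gave 39.4 (RNA A) and 65.7 (RNA B) in the female pools, and 33.4 (RNA A) and 105 (RNA B) in the male pools. The ranking is a description over 4 channels of 2 arrays.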

How the data were processed

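Total RNA of pooled ureters was compared on 2 dual-colour arrays. Spot intensities were deposited as the scanner software (Agilent Feature Extraction 10.7.3.1, per the file headers) had processed them, with background subtraction, surrogates for spots near background, and linear and LOWESS dye normalisation within each array, so ratios of dim spots depend on those steps. The deposited log10 ratio served to check the dyes, and matched the ratio of signals within 0.001 for 88.9% of spots. A table of signed fold changes that the authors deposited (a score without stated direction, column median 1 on either array) was an alternative. The stage label of the second channel differs from the titles, which were followed.

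Control spots and flagged spots (5705 and 5579) were left out, log2 signals averaged over the 3 or 4 spots of a probe, and genes represented by their brightest probe. Of 39381 probes, 28293 were named through RefSeq. The call well above background needed a share of 0.5 or more of a probe's kept spots. An intercept was fitted in limma 3.58.1 under R 4.3.3 (lmFit and eBayes) to the 2 log2 ratios of each of 21429 genes with 1 RNA or both well above background on both arrays, with Benjamini-Hochberg adjustment at 0.05. This leaves 1 residual degree of freedom per gene. Sequences are the files' own probe sequences.

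The members and gene lists were chosen with earlier results of these data known, and 2 genes were left out of the marker lists. Named are all members, genes of the lists, pathway genes past the filter or with the most extreme mean, and the 5 nearest patterns. Alternatives were normexp (offset 50) with loess, loess on processed signals, median centring, the authors' table, means over probes, an intensity trend, the fit without a filter on dim probes, other intensity and fold thresholds and leaving out each array. Plots were drawn with matplotlib 3.10.9.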

Additional observations from a re-analysis of the deposited data

Results flagged for a closer look

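The log2 ratios of Nr5a1 (0.26 and −0.97) and Mc2r (0.50 and −0.53) ran in opposite directions on the female and the male array and lay at least 2-fold apart. The ratio on array 1 minus that on array 2 was 1.23 for Nr5a1 and 1.04 for Mc2r. With 1 array per sex the difference was not tested, and since the dyes were exchanged between the same arrays, dye and sex cannot be told apart.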

How the results depend on the processing

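Of the alternative values computed, 8 counts moved by over 1.5 times and 1 mean over both arrays reversed. On 1 array alone the sign of the mean also turned for Star (0.0036), Cyp21a1 (0.24), Nr5a1 (0.26) and Mc2r (0.50) without array 2, and for Cyp11a1 (−0.041) without array 1. No member or other pathway gene was called by limma under any alternative run. With no intensity threshold, the filter counted 1 member in RNA A (Nr0b1, at background level) and 2 other pathway genes in opposite directions (Cyp11b2 and Hsd17b3, not well above background), and at 2-fold it counted 0 other pathway genes in RNA B. Leaving out each array in turn gave 0 to 1 members in RNA B (Nr5a1 without array 1) and 0 to 1 other pathway genes in RNA A (Nr5a2 without array 1). Members at least 1.5-fold brighter in RNA A on array 1 numbered 0 with normexp and loess, 0 with the authors' table and 2 with means over probes (Cyp11a1 and Cyp21a1, the latter through a probe at background). The mean of Mc2r became 0.0021 with normexp and loess (limma adjusted p = 1.00). The causes were not tested. Over the settings with both arrays, the mean of Hsd3b1 ranged from −1.26 to −0.78 (limma adjusted p from 0.351 to 1) and that of Cyp11b1 from −1.18 to −0.54 (limma adjusted p from 0.624 to 1), and that of Star from −0.43 to −0.13, each nearest 0 with normexp and loess. Each array holds both RNAs, so the pairing is already in the ratio and no further paired analysis was run. Most members are dim, and 1 pool per genotype and sex limits every comparison.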
